A study of Mus musculus with 6 samples.

Results

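Immediate early genes are the genes whose transcription rises first, without new protein synthesis, when a cell is stimulated or stressed. 10 of them, Fos, Fosb, Jun, Junb, Jund, Atf3, Egr1, Ier2, Ier3 and Dusp1, were followed by gene symbol through 6 RNA-seq libraries of sorted thymic endothelial cells (ECs), out of 24457 genes on chromosomes. All 10 were found in every library. All 10 were also among the 11717 genes tested, those that reached an FPKM of 1 in 2 or more libraries. FPKM counts fragments relative to the length of the transcript and to the mapped fragments of the library, so levels of different genes can be set beside each other per length.

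The study asked what distinguishes 3 subsets of ECs in the thymus of wildtype female C57BL/6 mice of 4 to 6 weeks. Type I ECs carried Ly6C but no P-selectin (Ly6C+Selp-), type II ECs carried both (Ly6C+Selp+), and type III ECs carried P-selectin alone (Ly6C-Selp+). The last are the cells named thymic portal ECs (TPECs). Each subset had 2 libraries, numbered replicate 1 and replicate 2. All 6 went through the same steps: digestion of the thymus for 1 h at 37 °C with collagenase I at 0.2 mg/ml, dispase I at 1 U/ml and DNase I at 0.06 mg/ml, then Percoll enrichment and sorting of live CD31+CD45-EpCAM- cells to a purity of at least 90%. No library came from undigested or unsorted tissue, so a response to the dissociation and the level these genes have in the thymus cannot be told apart. The mice and sorts behind a replicate number are not given in the labels, so the p-values measure the spread between these libraries, which may be technical.

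The members stand at different points of a single response. Growth factors, cytokines, shear and cell stress act through the ERK, JNK and p38 MAP kinases on factors already bound at the promoters of these genes. The Fos proteins (Fos, Fosb) pair with the Jun proteins (Jun, Junb, Jund) to form the transcription factor AP-1, and Atf3, a factor of the ATF/CREB family that often acts as a repressor, can pair with Jun proteins as well. Egr1 is a zinc-finger activator. Ier2 and Ier3 are small immediate early proteins, of which Ier3 acts in survival and ERK signalling. Dusp1 is a phosphatase that switches off p38, JNK and ERK and so ends the response, and glucocorticoids induce it too. In dissociated tissues many of these genes are known to rise during enzymatic digestion.

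The promoters of 4 members are shown. Dusp1, Junb and Atf3 are members whose subsets did not overlap on the FPKM as deposited, in either direction. For Atf3 the order of type II and type III ECs depended on how the libraries were scaled. Fos is shown beside these genes as a member with nearly the same level in all subsets. Each sequence is the 250 bases upstream of the start in the RefSeq annotation of GRCm38.p6, written 5′ to 3′ on the strand of the gene. Capitals mark the letters TGACG or their reverse complement CGTCA, the core of the cAMP response element (CRE) that CREB and ATF factors bind. The windows are Dusp1 chr17:26508473-26508722 on the minus strand, Junb chr8:84978749-84978998 on the minus strand, Atf3 chr1:191183334-191183583 on the minus strand and Fos chr12:85473640-85473889 on the plus strand.
Dusp1: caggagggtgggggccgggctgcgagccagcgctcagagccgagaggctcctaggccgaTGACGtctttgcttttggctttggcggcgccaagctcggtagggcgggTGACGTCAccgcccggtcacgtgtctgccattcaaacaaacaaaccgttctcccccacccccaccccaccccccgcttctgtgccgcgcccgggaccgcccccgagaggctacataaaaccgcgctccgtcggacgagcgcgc
Junb: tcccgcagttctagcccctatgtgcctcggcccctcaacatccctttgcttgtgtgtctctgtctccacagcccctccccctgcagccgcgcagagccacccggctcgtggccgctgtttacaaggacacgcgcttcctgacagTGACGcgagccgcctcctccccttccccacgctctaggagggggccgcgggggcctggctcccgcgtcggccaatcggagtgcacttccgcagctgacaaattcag
Atf3: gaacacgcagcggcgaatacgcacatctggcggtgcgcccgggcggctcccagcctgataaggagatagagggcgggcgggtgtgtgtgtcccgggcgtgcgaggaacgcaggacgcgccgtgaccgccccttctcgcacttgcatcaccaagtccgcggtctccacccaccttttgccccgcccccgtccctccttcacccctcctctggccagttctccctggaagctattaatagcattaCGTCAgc
Fos: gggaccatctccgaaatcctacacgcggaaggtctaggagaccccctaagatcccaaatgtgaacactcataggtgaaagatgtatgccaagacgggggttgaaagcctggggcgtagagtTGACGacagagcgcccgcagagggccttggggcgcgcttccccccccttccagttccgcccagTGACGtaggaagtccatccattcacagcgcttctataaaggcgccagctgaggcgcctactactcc

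In the Dusp1 window the marked letters began 191, 143 and 140 bases before the start, and the last of these overlap to give a full palindromic CRE, TGACGTCA. The Junb window held them once, 106 bases before the start. In Atf3 they lay 7 bases before the start, and in Fos 129 and 66 bases before it. Of 32851 RefSeq windows of the same length, 17.8% held TGACG on either strand, and 5 of the 8 members with a window did (Atf3, Dusp1, Fos, Fosb and Junb). The full CRE was in 1.55% of all windows and in Dusp1 alone among the 8. The AP-1 site TGANTCA was in 6.75% of all windows and the CArG box, where serum response factor binds, in 1.47%, and no member's window held either. TATAAA, read in the direction of the gene, was in 7.59% of windows and among members in Fos alone. GCGNGGGCG, an EGR site, was in 4.70% of windows and among members in Fosb alone. These matches describe letters in a short window and do not show binding.

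On mm9, the build of the files, the members lie on 7 chromosomes, and Dusp1 (chr17:26642536-26645417, minus strand) and Ier3 (chr17:35958658-35959856, plus strand) share one of them. Junb (chr8:87500808-87502647), Ier2 (chr8:87185230-87186751) and Jund (chr8:73221638-73224515) lie on chromosome 8. Egr1 (chr18:35020861-35024610) is on chromosome 18, Fos (chr12:86814851-86818219) on 12, Fosb (chr7:19888045-19895394) on 7, Jun (chr4:94715727-94718913) on 4 and Atf3 (chr1:192994176-193007212) on 1. The values cover whole genes, exons joined. In GENCODE M1, Egr1, Jun and Jund each overlap a gene on the opposite strand that the files do not list. The library kit is not stated to keep strand, so reads of such pairs cannot be told apart, and these 3 levels are uncertain to that extent.

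All 10 members were among the most abundant transcripts of all 6 libraries. Their FPKM ran from 111 (Dusp1 in a type III library) to 997 (Junb in a type I library), and their ranks among the 24457 genes ran from 15 to 391. In sum they made up 1.66% and 1.78% of all FPKM in the type I libraries, 1.60% and 1.70% in the type II libraries and 1.16% and 1.45% in the type III libraries. The type III ECs thus gave the lowest shares, below both libraries of each other subset. Averaged over the 6 libraries, Egr1 (729 FPKM), Junb (683), Fos (541) and Fosb (532) led, followed by Jun (376), Jund (342), Atf3 (257), Ier3 (213), Dusp1 (203) and Ier2 (193). Neighbours in this order overlapped across libraries, apart from Fosb and Jun, where the lowest Fosb value (459 FPKM) lay just above the highest Jun value (458).

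The intervals deposited for each level within a library were narrow. Libraries of the same subset could lie farther apart, such as Jun at 294 and 458 FPKM in type III ECs. The deposited 95% intervals spanned between 2.26% (Egr1) and 10.4% (Ier3) of the FPKM on either side, and correspond to 373 to 7835 estimated fragments per gene and library if they hold counting error alone. The libraries held an estimated 1452476 to 2423171 fragments in genes, and their summed FPKM ran from 221458 to 300932. The sort was seen in the transcripts: Selp had 7.87 and 5.20 FPKM in type I ECs and 313 to 657 in the other libraries, and Ly6c1 fell from 1010 and 692 in type I ECs to 99.6 and 59.7 in type III ECs. All 12 endothelial markers were measured, at a summed 2533 to 3338 FPKM.

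**Figure D1:**
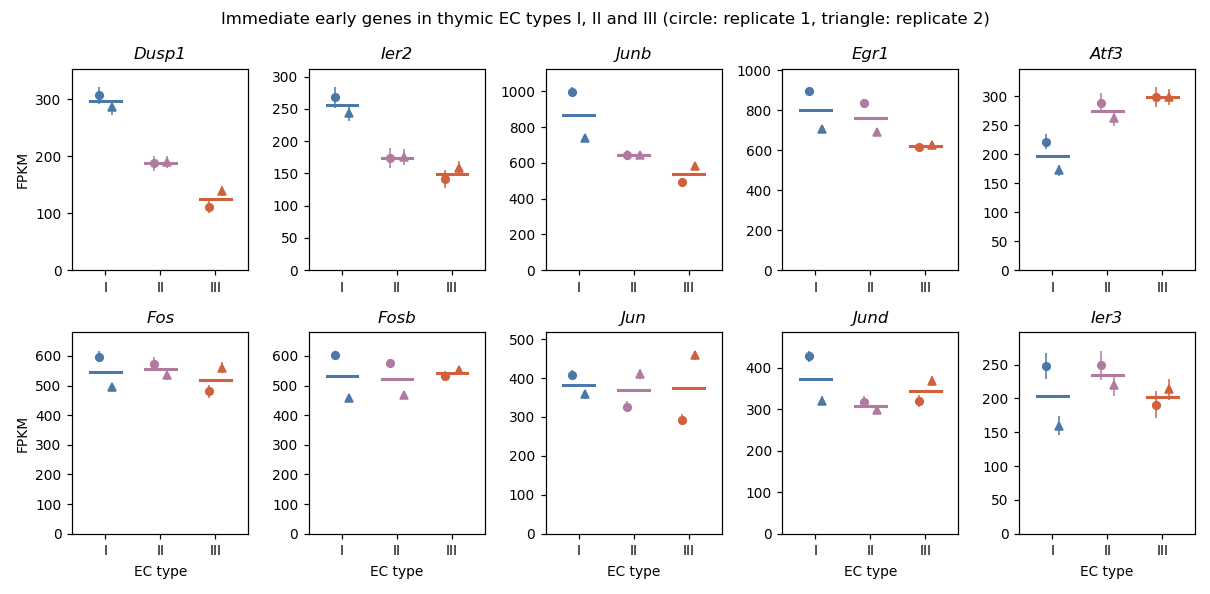
FPKM (vertical axis, starting at 0) of the 10 members in EC types I, II and III; points are libraries, error bars the deposited 95% intervals, and short horizontal lines the mean of 2 libraries. Dusp1, Ier2 and Junb step down from I to III without overlap, and Atf3 steps up on these deposited values. After scaling to the same summed FPKM type II lies above type III for Atf3, and after upper-quartile scaling they overlap. Fos, Fosb, Jun, Jund and Ier3 overlap between I and III on the deposited values. After scaling to the same summed FPKM Jund lies lower in III than in I.

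Dusp1, the phosphatase that ends MAP kinase signalling, was the single member past the threshold between subsets. It stood at 307 and 286 FPKM in the type I libraries, 188 and 190 in the type II libraries and 111 and 139 in the type III libraries. The 3 subsets did not overlap, with the double-positive ECs in between. From type I to type III ECs, Dusp1 fell by 1.25 on the log2(FPKM + 1) scale (SE 0.23, 95% confidence interval -1.76 to -0.74, limma adjusted p = 0.0151, n = 2 libraries per subset). The difference was -1.47 between the libraries numbered 1 and -1.03 between those numbered 2, so both pairs showed it. Without type III replicate 1 the difference was -1.08 (limma adjusted p = 0.16), and without type III replicate 2 it was -1.42 (limma adjusted p = 0.0589). Each of these libraries was needed for the call, and in those fits the lone library is assumed to vary like the others. Of all genes tested, 4.14% passed the threshold in this comparison, 2.05% as lower in type III ECs, and 1 of the 10 members did. These were 245 genes higher and 240 lower, and 301 higher and 425 lower after scaling to the same summed FPKM. At an unadjusted p under 0.05 it was 14.1% of all genes and 4 members (Dusp1, Ier2, Junb and Atf3). In bulk RNA, fewer cells that carry a transcript and less of it per cell cannot be told apart.

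The steps on either side of the type II ECs were of like size for Dusp1 but neither passed the threshold. The log2 difference was -0.65 (SE 0.23, limma adjusted p = 0.473) from type I to type II ECs and -0.60 (SE 0.23, limma adjusted p = 0.422) from there to type III ECs. No member was called in either comparison by limma. At an unadjusted p under 0.05, Dusp1 and Ier2 differed between the Ly6C+ subsets and Dusp1 alone between the Selp+ subsets. Over all genes, limma called 0.393% between the Ly6C+ subsets and 0.222% between the Selp+ subsets, and 7.48% and 9.99% had an unadjusted p under 0.05.

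Ier2 and Junb had the same order of subsets as Dusp1. Ier2, a nuclear immediate early protein, stood at 268 and 244 FPKM in type I ECs, 174 and 175 in type II ECs and 141 and 158 in type III ECs. Its libraries did not overlap between any pair of subsets. The log2 difference between type III and type I ECs was -0.77 (SE 0.22, limma adjusted p = 0.101). With the replicate number as a block the same difference had a limma adjusted p of 0.024, so the call for Ier2 depends on whether the libraries are paired, and also on how they are scaled. The paper's own list of genes that differ between types I and III, made with Cuffdiff, held Dusp1 and Ier2 and no other member.

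Junb, the Jun protein that often restrains growth driven by Jun, was the most abundant member in type I ECs, at 997 and 738 FPKM. It stood at 644 and 645 FPKM in type II ECs and 491 and 583 in type III ECs. The subsets again did not overlap, although the type I libraries lay far apart from each other. The log2 difference between type III and type I ECs was -0.68 (SE 0.25, limma adjusted p = 0.225). It was -1.02 between the libraries numbered 1 and -0.34 between those numbered 2. When every library was scaled to the same summed FPKM, the difference passed the threshold for Ier2 (-0.93, limma adjusted p = 0.0219) and for Junb (-0.83, limma adjusted p = 0.0219).

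Dusp1, Ier2 and Junb were the members with type I above type II above type III ECs in every library. Of all genes tested, 3.63% had this order without overlap. The same 3 genes kept it after scaling to the same summed FPKM and after upper-quartile scaling.

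Atf3 had the opposite order. It stood at 222 and 172 FPKM in type I ECs, 289 and 262 in type II ECs, and 299 in both type III libraries. On the deposited values no subset overlapped another, an order that 4.14% of all genes had, but the order of the Selp+ subsets depended on the scaling. With every library scaled to the same summed FPKM, both type II libraries (292 and 302 on that scale) lay above both type III libraries (262 and 290), and after upper-quartile scaling these subsets overlapped. type III ECs stayed above type I ECs under both scalings. The log2 difference between these was 0.61 (SE 0.23, 95% confidence interval 0.09 to 1.13, limma adjusted p = 0.254). The difference was 0.43 within the libraries numbered 1 and 0.79 within those numbered 2.

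Egr1 was lower in both type III libraries than in any other. It stood at 896 and 708 FPKM in type I ECs, 836 and 689 in type II ECs and 616 and 628 in type III ECs. The Ly6C+ subsets overlapped each other. The log2 difference between type III and type I ECs was -0.36 (SE 0.24, limma adjusted p = 0.62), with a 95% confidence interval from -0.90 to 0.19.

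The remaining members overlapped between type I and type III ECs on the deposited values. Fos, the classical partner of Jun in AP-1, stood at 598 and 494 FPKM in type I ECs, 574 and 536 in type II ECs and 480 and 561 in type III ECs. Fosb stood at 603 and 459, at 575 and 468, and at 534 and 552 FPKM in the same order of subsets. The highest library was 1.25 times the lowest for Fos and 1.31 times for Fosb, and the subsets were interleaved. The log2 difference between type III and type I ECs was -0.07 for Fos, with a 95% confidence interval of -0.59 to 0.46. For Fosb it was 0.04, with an interval of -0.51 to 0.60.

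Jun, the JNK target, stood at 408 and 359 FPKM in type I ECs, 327 and 411 in type II ECs and 294 and 458 in type III ECs. Its lowest and its highest value in the series were both in type III libraries. Jund, the Jun gene that is usually expressed without a stimulus, stood at 427 and 321, at 317 and 299, and at 320 and 368 FPKM in the same order. With every library scaled to the same summed FPKM, Jund was lower in type III ECs (281 and 357 on that scale) than in type I ECs (377 and 382). After upper-quartile scaling these subsets overlapped for Jund. Ier3 stood at 248 and 160, at 249 and 219, and at 191 and 213 FPKM. The lowest Ier3 value was in a type I library, while the other library of that subset was close to the highest. The log2 differences between type III and type I ECs were -0.06 for Jun (95% confidence interval -0.68 to 0.56), -0.11 for Jund (-0.65 to 0.43) and 0.02 for Ier3 (-0.58 to 0.62). The signs of Fos, Fosb, Jun, Jund and Ier3 each turned under some setting, so no direction is given for them.

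Over the members as a list, on the deposited values, the libraries of type III and type I ECs did not overlap for 5 of 10. In type III ECs 4 were lower (Dusp1, Ier2, Junb, Egr1) and 1 higher (Atf3). Of all genes tested 37.9% did not overlap between these subsets, 17.1% as lower and 20.7% as higher in type III ECs, and 52.0% of the 367 genes with a mean level of at least 100 FPKM. The share among members is near that background. Between type II and type I ECs 5 of 10 did not overlap, against 33.6% of all genes and 34.1% of those at 100 FPKM or more. Between the Selp+ subsets it was 7 of 10, against 41% of all genes and 62.9% of those at 100 FPKM or more. The median log2 difference of the members was -0.09 between type III and type I ECs, where that of all genes was 0.08. It was -0.07 against -0.06 for all genes between the Ly6C+ subsets, and -0.15 against 0.14 between the Selp+ subsets. The 3 comparisons share their libraries and are not independent of each other.

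**Figure D2:**
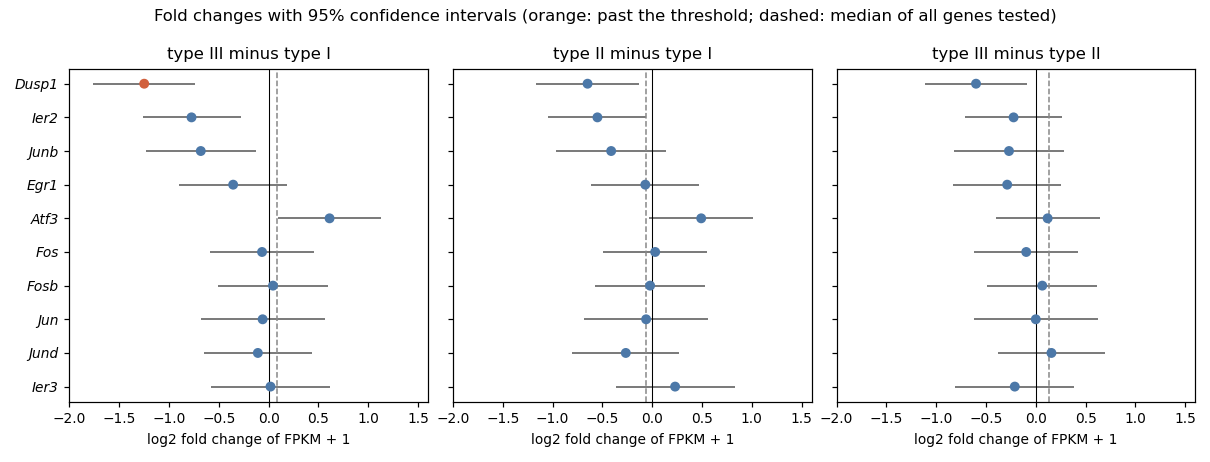
Log2 fold change of FPKM + 1 (horizontal axis) of each member in the 3 comparisons of EC types, with 95% confidence intervals; the solid line is 0 and the dashed line the median of all genes tested. Dusp1 at -1.25 between types III and I is the only point past the threshold, and Atf3 is the member farthest to the right in that comparison.

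Ratios within a library do not depend on how libraries were scaled. Relative to Fos, Dusp1 stood at 0.513 and 0.580 in type I ECs, 0.327 and 0.354 in type II ECs and 0.230 and 0.249 in type III ECs. Junb relative to Fos stood at 1.67 and 1.50, at 1.12 and 1.20, and at 1.02 and 1.04. For both genes the 3 subsets stayed apart, although for Junb the type I libraries differed from each other by more than type II did from type III. Atf3 relative to Fos stood at 0.371 and 0.349, at 0.503 and 0.489, and at 0.622 and 0.534, again with no overlap and in the opposite direction. Ier2 relative to Fos stood at 0.448 and 0.495, at 0.302 and 0.327, and at 0.293 and 0.282. The ratio of Atf3 to Dusp1 was 0.723 and 0.601 in type I ECs, 1.54 and 1.38 in type II ECs and 2.71 and 2.15 in type III ECs. Atf3 was thus below Dusp1 in both type I libraries and above it in the other 4. A ratio shows that the pair did not change alike and not which of them changed.

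**Figure D3:**
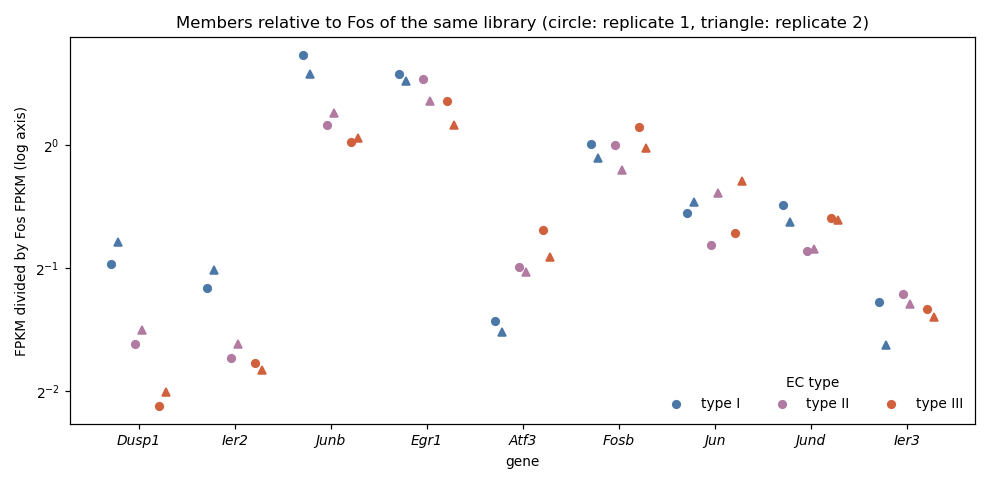
FPKM of each member divided by the FPKM of Fos in the same library (vertical axis, log scale), by EC type. Dusp1/Fos is 0.513 and 0.580 in type I and 0.230 and 0.249 in type III, Atf3/Fos is 0.371 and 0.349 against 0.622 and 0.534, while Jund, Fosb and Ier3 show no such steps.

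Within the Jun family the makeup differed between the subsets. Junb was 54.4% and 52.1% of the summed FPKM of Jun, Junb and Jund in type I ECs, 50.0% and 47.6% in type II ECs and 44.4% and 41.4% in type III ECs. The subsets did not overlap in this share. Jun made up 22.3% to 32.5% and Jund 22.1% to 29.0%, and Jund was at its highest share in the type III libraries, at 29.0% and 26.1%. In the Fos family, with Fosl1 and Fosl2 added, the makeup was similar throughout, with Fos at 42.1% to 46.7%, Fosb at 40.8% to 46.8%, Fosl2 at 10.9% to 12.4% and Fosl1 at 0.13% to 0.64%.

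The members were also compared between the libraries numbered 1 and 2. Limma called none of the 10, where 1.43% of all genes were called, nearly all of them lower in replicate 2, and no member had an unadjusted p under 0.05, where 23.7% of all genes did. The subsets differed in this respect. In type I ECs all 10 members were lower in replicate 2 on the deposited values. They ran from Ier3 at -0.63 to Dusp1 at -0.10 on the log2(FPKM + 1) scale. Their median was -0.35 where all genes had -0.39. That direction depended on the scaling. After scaling to the same summed FPKM most members were higher in type I replicate 2, such as Dusp1 (271 and 341 on that scale). Ier3 stayed lower (218 and 191) and Junb was level (880 in both). In type II ECs the median was -0.09 against -0.14. In type III ECs 9 of the 10 members were higher in replicate 2 and Atf3 was level, with a median of 0.18 against -0.18 for all genes, and all 10 lay above that median. Jun had the widest spread, with -0.19, 0.33 and 0.64 in the 3 subsets. The widest of these, 0.64 for Jun and -0.63 for Ier3, were close in size to the difference of Junb between types III and I. Whether the subsets differ in them was not tested, since each has 1 library per number.

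**Figure D4:**
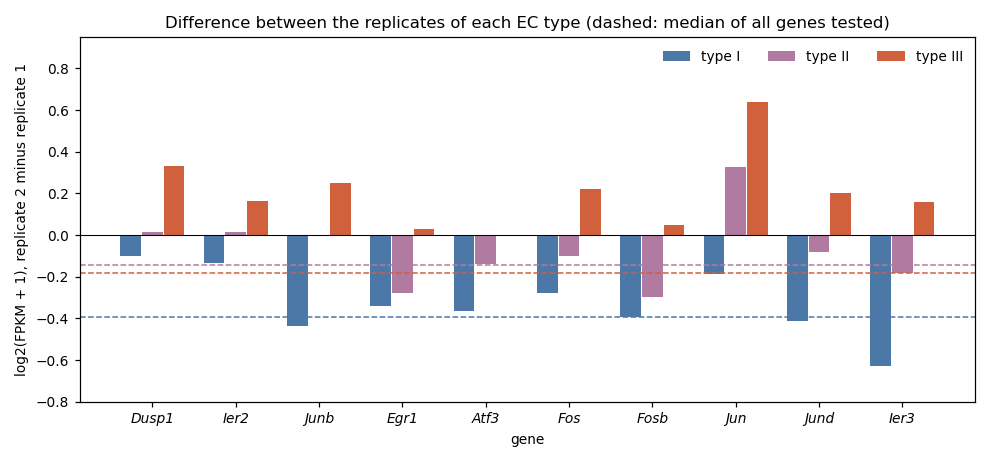
Log2(FPKM + 1) of replicate 2 minus replicate 1 (vertical axis) for each member within EC types I, II and III; dashed lines give the median of all genes tested in each type. On these deposited values all members lie below 0 in type I, where the median of all genes is -0.39. All lie above the type III median of -0.18. After scaling to the same summed FPKM most members turn upward in type I.

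Transcripts of other cells differed between the libraries, and immediate early genes are expressed by many cell types. Summed over their lists, myeloid and B cell markers stood at 386 and 59.3 FPKM in type I ECs, 157 and 63.6 in type II ECs and 617 and 121 in type III ECs. All 10 tested had a negative difference between replicates 2 and 1, and limma called 6 of them (C1qa, C1qb, Cd68, Csf1r, Emr1 and Lyz2). Between types III and I all 10 differences were positive, and limma called Cd14, with a log2 difference of 2.12 (SE 0.39, limma adjusted p = 0.0151). Thymocyte and T cell markers ran from 31.1 to 117 FPKM in type I ECs, 49.1 to 80.0 in type II ECs and 92.9 to 206 in type III ECs. All 10 tested had a negative difference between replicates 2 and 1, and limma called 4 of them (Cd3d, Cd3e, Cd3g and Dntt). Mesenchymal and mural markers ran from 337 to 725, from 529 to 835, and from 258 to 306 FPKM in the same order of subsets. Of these 12, limma called Pdgfrb lower in type III than in type I ECs, with a log2 difference of -1.85 (SE 0.33, limma adjusted p = 0.0132). Between replicates 2 and 1 the difference was negative for 9 of the 12, and limma called Dcn. Thymic epithelial markers ran from 14.2 to 50.0 FPKM in all, with 0 of 7 called by limma in any comparison and 6 with an unadjusted p under 0.05 between replicates. Lymphatic and erythroid markers ran from 24.0 to 158 FPKM, with both rows of Hba-a1 lower in type III ECs. Of the 7 rows tested, 2 were higher in type III than in type I ECs without overlap of the libraries, and 3 were lower. Those higher were the lymphatic markers Prox1 and Lyve1, and limma called 0 of the list higher. Of all genes tested, 20.7% were higher and 17.1% lower without overlap. Lyve1, Ms4a1, Krt14 and Ptcra were listed at 0 in 2 or 3 libraries. Of the endothelial markers limma called Cldn5 and Kdr lower and Eng higher in type III than in type I ECs. The part of any of these cells in the levels of the members was not tested.

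Other genes of the response were read from lists. Of 44 further immediate early and primary response genes, limma called 2 higher and 2 lower in type III than in type I ECs. It called 4.14% of all genes in either direction. The median log2 difference of the 44 was -0.12. Nr4a1, an orphan nuclear receptor induced along with the members, stood at 140 and 116 FPKM in type I ECs, 94.0 and 94.4 in type II ECs and 59.6 and 59.8 in type III ECs, and fell by 1.08 on the log2 scale (SE 0.22, limma adjusted p = 0.0291). Its order of subsets was that of Dusp1. Ier5l fell by 1.09 (SE 0.24, limma adjusted p = 0.0357), while Ctgf, a matricellular target of the YAP and SRF pathways, rose by 2.63 (SE 0.32, limma adjusted p = 0.00219). Ptgs2, the inducible prostaglandin synthase, rose by 1.99 (SE 0.42, limma adjusted p = 0.0303) from 2.18 and 0.58 to 8.79 and 7.08 FPKM. Arc (-1.33, limma adjusted p = 0.0569) and Klf10 (-1.40, limma adjusted p = 0.0571) had the lowest values and lay just outside the threshold of this test.

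Dusp1 belongs to a class of proteins that dampen MAP kinase signalling. Of 16 other MAP kinase phosphatases and feedback inhibitors tested, 10 had a negative difference between types III and I. Their median log2 difference was -0.60 where that of all genes was 0.08. Limma called 3 lower and 0 higher, where it called 2.05% of all genes lower. The 3 were Sprouty and Spred genes, inhibitors of signalling from receptor tyrosine kinases to ERK. Spry4 stood at 30.5 and 30.2 FPKM in type I ECs, 23.4 and 15.7 in type II ECs and 7.80 and 11.1 in type III ECs, and fell by 1.60 on the log2 scale (SE 0.30, limma adjusted p = 0.017). Spred2 fell by 1.46 (SE 0.27, limma adjusted p = 0.0164) and Spry1 by 1.23 (SE 0.27, limma adjusted p = 0.0376). Without overlap of the subsets' libraries, 9 of the 16 were lower and 2 higher, against 17.1% and 20.7% of all genes tested. Spred1 (0.58) and Dusp10 (0.48) had the highest values and were not called by limma.

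A list of 9 glucocorticoid-related genes held mainly induced genes, and also the receptor gene Nr3c1. Limma called 1 of the 9 lower in type III than in type I ECs, where it called 2.05% of all genes lower. A negative difference was found for 8 of the 9, Nr3c1 among them, with a median of -0.79. Sgk1 and Per1 are also counted among the further immediate early genes above. Tsc22d3, which encodes the glucocorticoid-induced leucine zipper, stood at 34.3 and 25.9 FPKM in type I ECs and 13.5 and 10.4 in type III ECs and fell by 1.26 (SE 0.29, limma adjusted p = 0.0473). Limma did not call Zbtb16 (-1.57, adjusted p = 0.0535), Fkbp5 (0.97, adjusted p = 0.116) or Klf9 (-0.10, adjusted p = 0.934). The induced genes of this list share an inducer with Dusp1, and whether steroid exposure differed between the mice or the subsets was not tested.

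Limma called 4.14% of all genes between types III and I. Among 15 heat shock and chaperone genes 1 was called in this comparison, Hsph1, which rose by 1.31 (SE 0.31, limma adjusted p = 0.0495) at a list median of 0.28. Hspa1a, the stress-inducible HSP70, had a difference of -1.11 (SE 0.27, limma adjusted p = 0.0605), and Dnajb4 (0.75) and Hspb1 (-0.36) were not called by limma. Hspd1 was lower in replicate 2 (-0.85, limma adjusted p = 0.0434). Of 14 hypoxia and p53 genes limma called 2 higher, Egln3 (2.09, SE 0.44, limma adjusted p = 0.0308) and the glucose transporter Slc2a1 (2.08, SE 0.27, limma adjusted p = 0.00299), at a median of 0.34. Adm (-1.13) and Bbc3 (-0.80) had the lowest values and were not called by limma.

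Limma called none of the 27 other bZIP factors between types III and I, with Batf at 1.63, Nfil3 at 0.93, Creb5 at -1.23 and Jdp2 at -1.07, and 4 of them had an unadjusted p under 0.05. None of 30 upstream kinases and serum response factors was called by limma, with Map3k5 at -1.22, Map2k6 at -0.79, Mapkapk2 at 0.49 and Mapk9 at 0.39, and 3 had an unadjusted p under 0.05. None of 8 genes of proteins that bind AU-rich mRNA was called by limma, and 0 had an unadjusted p under 0.05. Their extremes were Zfp36 at -0.21, Zfp36l1 at -0.20, Tia1 at 0.26 and Tial1 at 0.26.

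Of the 11 called genes of these lists, Ctgf and Slc2a1 kept their call without any 1 library and in all other settings. Without type III replicate 1 the other 9 were past the threshold no longer (limma adjusted p of 0.117 to 0.298), and 5 to 8 of the 11 lost their call without each other library, with adjusted p-values between 0.0529 and 0.216. With all libraries, Hsph1, Ier5l, Nr4a1, Spry1 and Tsc22d3 lost their call without a trend in the spread (limma adjusted p of 0.0746 to 0.0934) and with only the libraries compared in the fit (0.0688 to 0.0877). Without a filter on low values 6 lost it (Egln3, Hsph1, Ier5l, Ptgs2, Spry1 and Tsc22d3), and at a pseudocount of 0.1 the same happened to 4 (Egln3, Hsph1, Ptgs2 and Tsc22d3). In the comparisons of type II ECs with the other subsets limma called no gene of any of these lists, and 0 to 5 genes per list had an unadjusted p under 0.05. The paper's Cuffdiff list for types I and III also held named genes of these lists that limma did not call. Among them were Arc, Klf10, Hspa1a, Zbtb16, Fkbp5, Sgk1, Per1, Jdp2 and Map3k5.

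**Figure D5:**
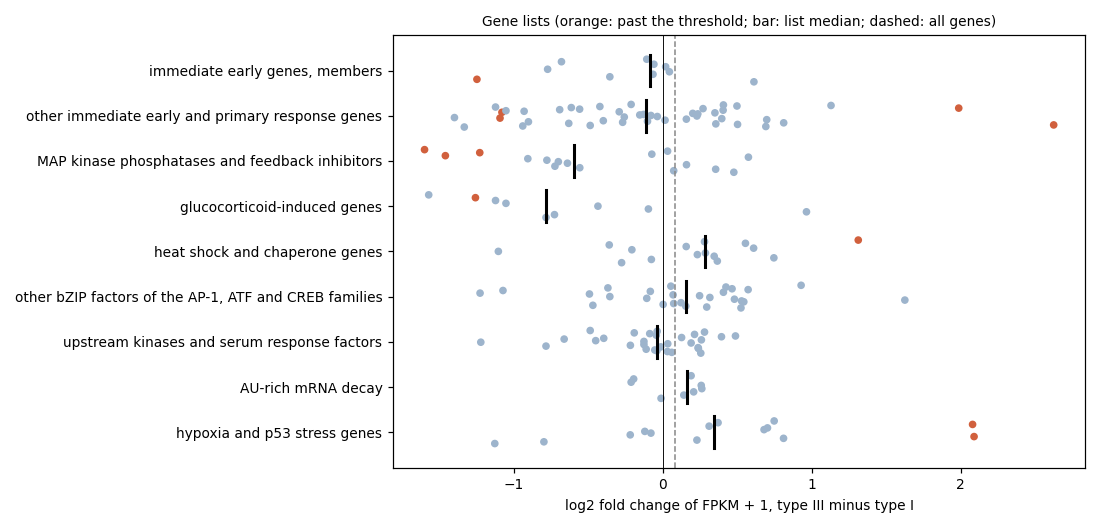
Log2 fold change of FPKM + 1 between types III and I (horizontal axis) of the members and of 8 lists of related genes; each point is a gene, black bars are list medians and the dashed line is the median of all genes tested. The MAP kinase inhibitors and the list labelled glucocorticoid-induced genes, which includes the receptor gene Nr3c1, have the lowest medians, -0.60 and -0.79. They hold 3 and 1 genes past the threshold, all lower, where 2.05% of all genes were called lower.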

How the data were processed

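RNA of 6 libraries of sorted thymic ECs, 2 for each of 3 subsets named by the sample labels, was sequenced after preparation with the NEBNext Ultra kit. According to the submitters' processing notes, CASAVA 1.8, TopHat2 2.0.10, Cufflinks 2.1.1 and Cuffdiff were used, with mm9 as the build. The gene annotation is not given in the sources used here. The authors deposited FPKM per gene and library, computed by Cufflinks for each library on its own, with the lower and upper bounds of 95% intervals. Normalisation over libraries was not part of these values, and counts were not analysed here, so the tests take no account of depth.

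Rows off the chromosomes, which hold spike-in and reporter sequences, were dropped (95 per file, 8 of them with a value above 0), which left 24457 genes. Fragments were estimated from the upper bound as the square of 2 times FPKM over the distance to the bound, and they cover counting error only. A floor of 3 fragments corresponds to a median FPKM of 0.324 to 0.553. Starts in the files count from 0 and are given here from 1.

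Genes that reached an FPKM of 1 in 2 or more libraries (11717) entered a two-sided test in limma 3.58.1 under R 4.3.3, with eBayes and a trend, on log2(FPKM + 1), a scale that understates changes of low genes. All libraries entered one fit with a mean per subset. The replicate number was tested in a fit with the subset. Benjamini-Hochberg adjustment ran over all genes tested and the threshold was 0.05. The scripts were tested on simulated data. The labels number the libraries of each subset 1 and 2 and do not say what a number marks. Deviations from the subset means correlated between same-numbered libraries (r across genes 0.20 for types I and II, 0.31 for types I and III, 0.18 for types II and III), so the blocked fit is given where it changes a call of a member.

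The members and gene lists were chosen with earlier results of these data known. Named genes are the 10 members and, of each related list, every gene called in any comparison plus the 2 largest and 2 smallest differences between types III and I. Marker lists of other cells are given by sums and called genes. For the lymphatic and erythroid list, the markers higher in type III ECs without overlap are named too. Values of a few single genes of the lists are not reported here. Summaries used python 3.11.15, numpy 2.4.6 and pandas 2.3.3. Promoter windows were matched by symbol to RefSeq (GRCm38.p6). Egr1 and Ier2 had no entry. Alternatives covered the pseudocount, the filter, scaling, the trend, the block, the samples fitted and each library left out.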

Additional observations from a re-analysis of the deposited data

How the results depend on the processing

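No value turned from one called direction to the other under any setting. Dusp1 was past the threshold between types III and I in 14 of 17 settings, at -1.42 to -1.08 on the log2 scale. It missed it without a trend in the spread (limma adjusted p = 0.0603) and without either type III library. Members past the threshold between types III and I numbered 1 in the report, 3 after scaling to the same summed FPKM, 2 after upper-quartile scaling, 4 after quantile normalisation, 0 without a trend, 2 with the replicate number as a block and 0 to 1 with 1 library left out. With scaling to the same sum and the block together, a setting chosen after seeing the data, 5 members were past it (Dusp1, Ier2, Junb, Egr1 and Atf3), and 2 each between types II and I (Atf3, Dusp1) and between types III and II (Dusp1, Egr1). The block changed no member's call but that of Ier2. No paired analysis was possible for the difference between replicates because the number is itself what is tested there.

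Over all genes, 485 were called between types III and I (245 higher, 240 lower), 726 after scaling to the same sum (301 higher, 425 lower), 317 without a filter on low values, 971 with the replicate block, 1237 with scaling and block, and 233 to 425 with 1 library left out. Between types II and I, 46 were called (38 higher, 8 lower), 102 after scaling to the same sum (74 higher, 28 lower), 98 after upper-quartile scaling, 103 after quantile normalisation, 12 without a filter, 15 without a trend, 183 with the block, 29 with only the libraries compared, 315 with scaling and block, and 12 to 46 with 1 library left out. Between types III and II, 26 were called (11 higher, 15 lower), 126 after scaling to the same sum (28 higher, 98 lower), 100 after upper-quartile scaling, 90 after quantile normalisation, 0 without a filter, 10 without a trend, 229 with the block, 7 with only the libraries compared, 360 with scaling and block, and 5 to 47 with 1 library left out. Between replicates 2 and 1, 167 were called (2 higher, 165 lower), 44 after scaling to the same sum (13 higher, 31 lower), 39 after upper-quartile scaling, 31 after quantile normalisation, 97 at a pseudocount of 0.1, 0 without a filter, 545 at an FPKM of at least 5, 0 without a trend, and 8 to 324 with 1 library left out. The causes were not tested. Scaling to the same sum moved the median log2 difference of all genes from 0.14 to -0.05 between types III and II and from -0.23 to -0.02 between replicates.

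With 2 libraries per subset, the size of difference that could be called varied with the setting: Atf3 at 0.46 was called with scaling and block, and Junb at -0.68 was not called in the report. Whether dissociation raised these genes cannot be told apart from their level in the thymus. Of the other values recomputed for single genes, 4906 stayed on their side of the threshold, 153 newly passed it and 207 no longer did.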

Other observations

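The genes whose pattern over the 6 libraries was most like the mean log2(FPKM + 1) of the 10 members were Gamt (Pearson r 0.972), Auh (0.971), Gemin8 (0.965), Ntpcr (0.962), Lbx2 (0.958), Slc35c1 (0.957), Alg14 (0.954), Scamp5 (0.946), Rem1 (0.944) and Medag (0.934). They were picked from 3351 genes with an SD of at least 0.5 and are given as a description, with no p. All were low: Gamt ran from 2.43 to 15.9 FPKM and Lbx2 from 0 to 2.60. On the deposited values they were highest in type I replicate 1 and lowest or nearly so in type III replicate 1. The mean of the members was too, at 8.78 and 8.25 on the log2 scale.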
